A study of Homo sapiens with 20 samples.

Results

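The genes of glycolysis and glucose handling were examined in LNCaP cells, an androgen-responsive human prostate adenocarcinoma line, after EHMT1 was silenced or induced. The group comprised 34 named genes. Their rows were taken by symbol, and the list was chosen with earlier results of these data known. All 34 were found, each with a single row, among the 57773 gene rows of both count tables, and all 34 passed the filter on low counts. That filter left 14532 genes in the siRNA samples and 14105 in the stable lines.

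EHMT1, also called GLP, is a histone methyltransferase that places methyl groups on lysine 9 of histone H3. Parental LNCaP cells received 20 nM of a siRNA pool against EHMT1 (siEHMT1) or a non-targeting control (siNTC) for 2 days, with 2 samples in each group. In 4 stable lines, a lentiviral tetracycline-inducible vector carried V5-tagged EHMT1 as the wild-type protein (WT) or with lysine changed to arginine at 1 of 2 neighbouring residues (K450R or K451R) or at both (K450RK451R). These lines were left untreated, called Veh here, or given 0.25 µg/mL doxycycline for 2 days (Dox). The lines were selected with puromycin, and the labels do not say whether they are clones. Every line keeps its own EHMT1 gene, and reads on EHMT1 do not separate it from the vector copy. No doxycycline-treated line without the vector was analysed here, so doxycycline itself and EHMT1 induction cannot be told apart.

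Each stable-line condition came as 2 count columns, whose samples are titled rep 1 and rep 2. These columns differed by no more than counting noise (chi-square per degree of freedom 0.995 to 1.02). They were therefore summed and counted as 1 sample. In the siRNA samples the same ratio was 13.4 and 61.6. Total counts ran from 5593400 to 12438006 per siRNA sample and from 8436791 to 12407739 per stable-line condition. The second siNTC sample stood apart, with 10.0% of its counts on 2 rRNA-like pseudogenes against at most 1.00% in every other sample. The 9 luminal prostate markers were all expressed, and the basal, leukocyte and endothelial lists summed to at most 16.0 CPM (read counts scaled to a common library total) in any sample. The list of 4 fibroblast markers summed to 16.1 to 17.9 CPM in the siRNA samples and to 31.1 to 41.6 CPM in the lines, mostly from COL1A1 with COL1A2 at 0 counts. These are bulk libraries, in which fewer expressing cells and less RNA per cell cannot be told apart. Whether the samples were separate cultures is not stated, so the p-values measure only the spread between these samples.

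Glycolysis turns glucose into pyruvate. Glucose enters through transporters such as GLUT1, encoded by SLC2A1, and is trapped by hexokinases. Phosphofructokinase then commits it to breakdown, under the control of fructose-2,6-bisphosphate, which PFKFB enzymes make and remove. Pyruvate is reduced to lactate by lactate dehydrogenase and exported, or it enters mitochondria through pyruvate dehydrogenase, which PDK kinases restrain. Side branches lead to glycogen and to the pentose phosphate pathway. Many of these genes are textbook targets of the hypoxia-inducible factors (HIF) and of MYC. Prostate cancer cells of luminal type are known for a comparatively oxidative metabolism.

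The sequences upstream of the start of 4 members are shown because 3 of them changed with doxycycline and LDHA is the classical HIF and MYC target of the pathway. Each run is the 250 bases before the start site in RefSeq on GRCh38.p14, read 5′ to 3′ on the gene's own strand. Capitals mark ACGTG, a form of the core of the HIF recognition sequence, on either strand (as CACGT on the other). They also mark CACGTG, the E-box bound by MYC, which contains ACGTG on both strands. Other forms of the HIF core, such as GCGTG, were not searched or marked. PFKFB3 lies at chr10:6144671-6144920 on the plus strand, SLC2A1 at chr1:42958869-42959118 on the minus strand, HK2 at chr2:74833877-74834126 on the plus strand and LDHA at chr11:18394313-18394562 on the plus strand.
PFKFB3: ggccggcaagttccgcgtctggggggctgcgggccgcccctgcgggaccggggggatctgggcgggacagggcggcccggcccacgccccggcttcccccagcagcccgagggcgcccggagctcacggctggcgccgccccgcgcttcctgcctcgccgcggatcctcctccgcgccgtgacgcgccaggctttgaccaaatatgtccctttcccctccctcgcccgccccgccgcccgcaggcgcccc
SLC2A1: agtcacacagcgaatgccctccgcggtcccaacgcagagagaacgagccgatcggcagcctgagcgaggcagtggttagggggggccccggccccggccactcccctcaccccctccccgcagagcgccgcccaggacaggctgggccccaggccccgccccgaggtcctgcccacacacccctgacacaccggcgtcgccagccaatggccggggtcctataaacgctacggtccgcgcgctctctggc
HK2: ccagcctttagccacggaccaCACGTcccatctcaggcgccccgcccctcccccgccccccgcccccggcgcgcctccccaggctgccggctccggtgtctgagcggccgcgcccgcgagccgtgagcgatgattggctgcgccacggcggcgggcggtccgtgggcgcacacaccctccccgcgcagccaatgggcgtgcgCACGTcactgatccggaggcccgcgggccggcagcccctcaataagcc
LDHA: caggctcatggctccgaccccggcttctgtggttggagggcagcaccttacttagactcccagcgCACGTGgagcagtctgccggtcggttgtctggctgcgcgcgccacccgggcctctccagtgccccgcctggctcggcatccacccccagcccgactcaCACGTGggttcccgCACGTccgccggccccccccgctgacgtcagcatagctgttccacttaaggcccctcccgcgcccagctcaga
In GENCODE 44 mapped to GRCh37, the build of the counts, the genes themselves span 6186897 to 6296607 on chromosome 10 (PFKFB3), 43391024 to 43424564 on chromosome 1 (SLC2A1), 75061254 to 75120486 on chromosome 2 (HK2) and 18416107 to 18429972 on chromosome 11 (LDHA). PFKFB3 and SLC2A1 had 0 matches to ACGTG in this window. HK2 had 2 and LDHA had 5, of which 4 came from 2 CACGTG sites read on both strands. Of the 34 members, 31 were matched to a promoter. ACGTG was present in 12 of these 31, against 18.5% of 35116 promoters of the same length. CACGTG was present in 4 of 31, against 6.34% of all promoters. A match is a string of letters and not evidence of binding, and its absence concerns this string and this window only.

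The members spanned a wide range of levels. Per kilobase of merged exons, GAPDH was the highest member in the Veh samples, at 4268 to 5070 CPM per kb, and ALDOA followed at 2052 to 2683 CPM per kb. SLC2A3, which encodes the transporter GLUT3, was the lowest at 0.196 to 0.285 CPM per kb, or 14 to 17 counts per condition, so its ratios carried little information. The members together held 1.16 to 1.32% of the counts in the siRNA samples and 4.65 to 5.55% in the stable lines. PFKFB3 averaged 13.6-fold and PFKFB4 10.9-fold the siNTC mean in the Veh samples, whereas PDHB, a pyruvate dehydrogenase subunit, was at 0.636-fold. Over all members the median of this ratio was 2.51, and it was 0.934 over 13617 genes. The ratio was above 2 for 21 of 34 members and for 9.13% of the 13617 genes. Wide gaps were also seen outside the group, with ANKRD37 at 62.1-fold, VEGFA at 13.2-fold, ENO2 at 11.1-fold and MYC at 0.321-fold. The tables were normalized separately and differ in cells, vector and selection, so these ratios are given without a test.

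**Figure D1:**
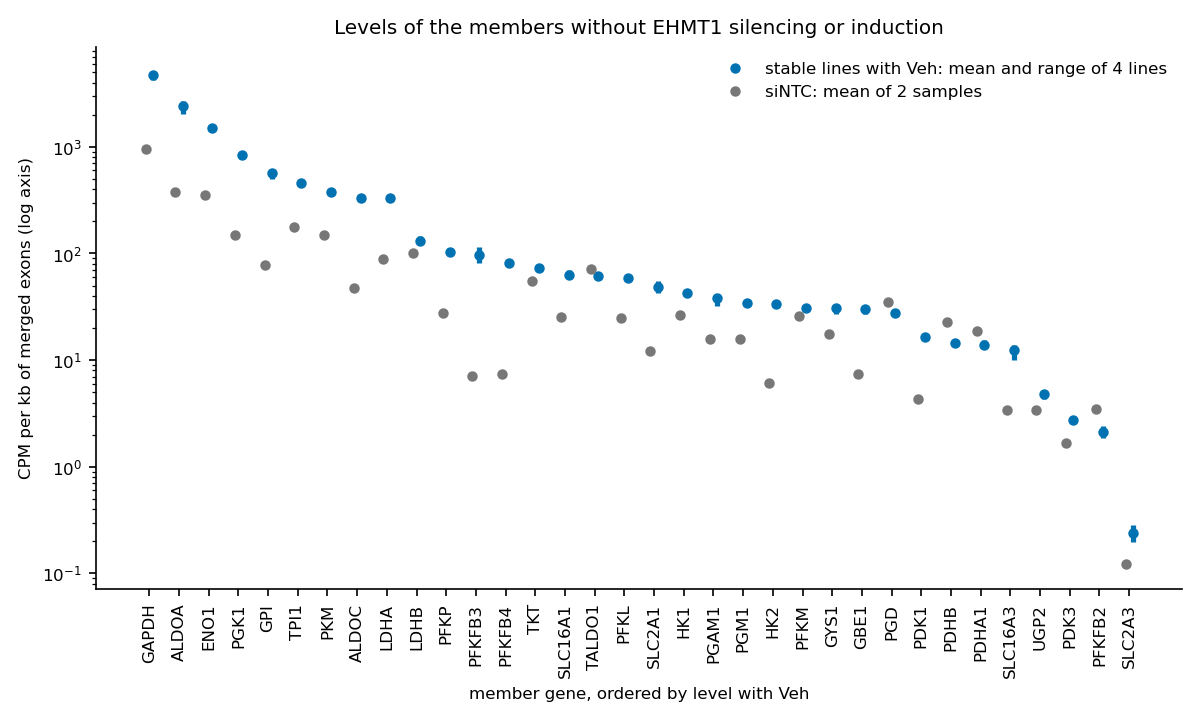
Level of each member in CPM per kilobase of merged exons, on a log axis, as the mean of 2 siNTC samples (grey) and the mean and range of the 4 stable lines with Veh (blue). GAPDH is highest and SLC2A3 lowest in the Veh samples, and PFKFB3 and PFKFB4 show the widest gaps between the tables.

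The first question was whether glucose genes depend on EHMT1 in parental cells. EHMT1 was at 87.8 and 83.6 CPM in the siNTC samples and at 29.2 and 30.7 CPM in the siEHMT1 samples, a log2 fold change of −1.51 ± 0.11 (SE, edgeR quasi-likelihood test, adjusted p = 1.51e-07). No member changed at an adjusted p below 0.05: 0 of 34 were lower and 0 of 34 higher, against 0.0688% lower and 0.0619% higher of all genes tested. At an unadjusted p below 0.05, 4 members were lower (PFKFB3, GPI, PDK1 and UGP2) and 0 were higher, against 5.07% and 4.51% of all genes. DESeq2 and limma-voom called 0 members in either direction as well. The log2 fold change was negative for 25 members and positive for 9, with a median of −0.077 against −0.0021 over all genes. Both siEHMT1 samples lay below both siNTC samples for 12 members and above them for 3, where 19.8% and 19.9% of all genes did so. In the same samples the endothelial list summed to 7.64 and 9.27 CPM in siNTC and to 15.6 and 16.0 CPM in siEHMT1, all of it from VWF with CDH5 at 0 counts. The mitochondrial share of counts was 22.3 and 24.9% in siNTC and 26.8 and 28.2% in siEHMT1, also without overlap. MALAT1, a nuclear RNA, was at 785 and 964 CPM in siNTC and at 788 and 1667 CPM in siEHMT1, so that siEHMT1 replicate 2 stood highest, as it did for NEAT1. The part of these in the members' values was not tested.

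PFKFB3 makes the fructose-2,6-bisphosphate that activates phosphofructokinase. It was at 44.8 and 42.1 CPM in siNTC and at 35.3 and 34.7 CPM in siEHMT1. The groups did not overlap, yet the log2 fold change of −0.31 ± 0.12 (SE) did not pass after adjustment (edgeR adjusted p = 0.377). GPI, which converts glucose-6-phosphate to fructose-6-phosphate, was at 807 and 855 CPM in siNTC and at 706 and 716 CPM in siEHMT1, with a log2 fold change of −0.23 ± 0.09 (SE). PDK1, a kinase that inactivates pyruvate dehydrogenase, was at 54.4 and 72.7 CPM against 49.4 and 56.0 CPM. The PDK1 groups overlapped, with a log2 fold change of −0.27 ± 0.13 (SE).

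UGP2 makes the UDP-glucose used for glycogen, and it was at 25.2 and 21.5 CPM in siNTC and at 20.6 and 16.8 CPM in siEHMT1. SLC16A3, the lactate exporter MCT4, was at 33.0 and 30.4 CPM against 28.1 and 25.5 CPM. Neither of these overlapped between groups, with log2 fold changes of −0.33 ± 0.16 for UGP2 and −0.25 ± 0.13 for SLC16A3 (SE). SLC2A3 had the largest fold change, 0.48 ± 0.70 (SE) on the log2 scale, on 4 and 7 counts in siNTC and 5 and 18 counts in siEHMT1, with overlapping groups. Its sign turned without siNTC replicate 1 (−0.42) or without siEHMT1 replicate 2 (−0.50).

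SLC2A1 was at 76.8 and 84.4 CPM in siNTC and at 74.9 and 78.3 CPM in siEHMT1, which overlapped. HK2, the hexokinase of growing and tumour cells, was at 34.8 and 38.1 CPM against 26.2 and 36.3 CPM, so that the siEHMT1 samples differed from each other by more than the controls did. HK1, the housekeeping hexokinase, was at 193 and 170 CPM against 158 and 167 CPM. LDHA, which reduces pyruvate to lactate, was at 506 and 555 CPM against 475 and 462 CPM.

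The groups did not overlap for HK1 and LDHA. ALDOA was at 1351 and 1537 CPM in siNTC and at 1338 and 1290 CPM in siEHMT1. ALDOC was at 115 and 130 CPM against 121 and 125 CPM, and GAPDH at 2245 and 2281 CPM against 2352 and 2295 CPM. The siEHMT1 samples were the lower for ALDOA and the higher for GAPDH, without overlap, and overlapped the controls for ALDOC. PFKFB4, a paralogue of PFKFB3, was at 39.4 and 51.8 CPM against 40.5 and 43.7 CPM, and its log2 fold change of −0.11 became 0.095 without siNTC replicate 2.

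**Figure D2:**
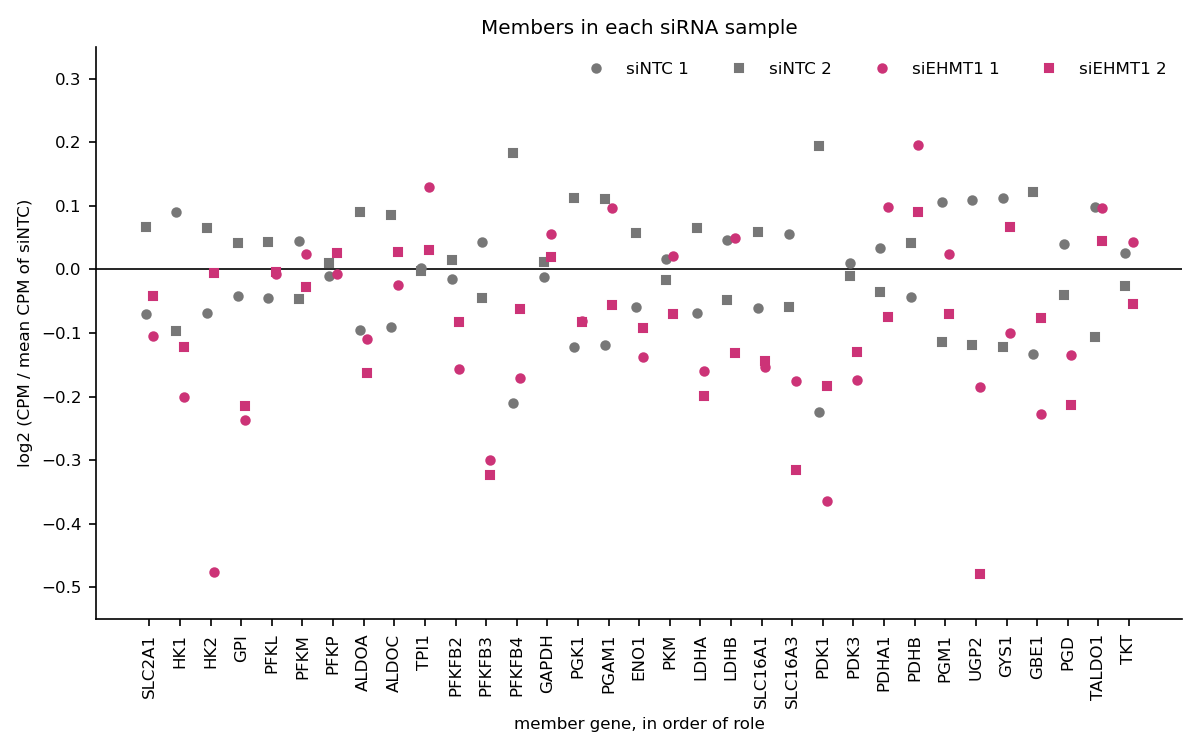
Level of 33 members in each siRNA sample as log2 of CPM over the mean CPM of the siNTC samples (grey, siNTC, and magenta, siEHMT1, with circles for replicate 1 and squares for replicate 2). SLC2A3, with at most 18 counts, is left out. Both siEHMT1 samples lie below both siNTC samples for 12 members, PFKFB3 and GPI among them, and above for 3. Of all genes 19.8% and 19.9% did so. The other members shown overlap.

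Doxycycline raised EHMT1 in every line. EHMT1 went in K450R from 84.2 to 842 CPM, in K451R from 71.7 to 725 CPM and in K450RK451R from 88.9 to 663 CPM, and in WT from 76.3 to 797 CPM. Over the 4 lines, with the line as a block, 3 members fell and 0 rose, against 1.5% of all genes lower and 0.603% higher. They were PFKFB3 (log2 fold change −0.58 ± 0.09 SE, edgeR adjusted p = 0.000238), SLC2A1 (−0.38 ± 0.08, adjusted p = 0.00528) and HK2 (−0.32 ± 0.06, adjusted p = 0.00424). All 3 act at the entry to glycolysis or its commitment step. The other members of these steps, HK1, SLC2A3, PFKL, PFKM, PFKP, PFKFB2 and PFKFB4, did not pass in this fit. Under DESeq2 only HK2 passed, with an adjusted p of 0.219 for PFKFB3 and 0.372 for SLC2A1. The SLC2A1 call was also lost without the K450R line (adjusted p = 0.0936) and without K450RK451R (adjusted p = 0.0562).

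Earlier results of these data had shown gene lists of opposite sign in WT and in the mutants. The mutants were grouped apart from WT with those results known, so the p-values of this grouping are not from a planned comparison. This fit took the 3 different mutants as replicates of 1 Dox effect, and its p-values lean on variance estimates shared across genes. Over the 3 mutant lines alone, 8 members fell and 0 rose, against 2.33% of all genes lower and 1.30% higher. Of the 34 fold changes 27 were negative, with a median of −0.073 against 0.0039 over all genes. The 8 were SLC2A1, HK1 and HK2 among the 4 glucose entry genes, GPI, ALDOA and ALDOC among the 7 upper glycolysis genes, PFKFB3 among the 3 PFKFB genes, and GAPDH among the 5 lower glycolysis genes. None of the 4 lactate and monocarboxylate genes, the 4 pyruvate dehydrogenase genes, the 4 glycogen genes or the 3 pentose phosphate genes passed. The count fell to 4 without the K450RK451R line, where GPI, ALDOA, ALDOC and GAPDH no longer passed (edgeR adjusted p = 0.227, 0.319, 0.162 and 0.0845).

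PFKFB3 showed the largest fall over the mutants. It went in K450R from 645 to 426 CPM, in K451R from 493 to 287 CPM and in K450RK451R from 519 to 260 CPM, and in WT from 700 to 715 CPM. All 3 mutant Dox samples lay below all 4 Veh samples, while the WT Dox sample was the highest of the 8. In WT the counting interval of the log2 ratio, −0.016 to 0.078, spanned 0. The level fell by 33.9% in K450R, fell by 41.8% in K451R and fell by 49.8% in K450RK451R, and the log2 ratio in K450RK451R was −0.99 (exact 95% interval −1.06 to −0.93). These intervals cover counting error only. Over the mutant lines the log2 fold change was −0.79 ± 0.06 (SE, edgeR adjusted p = 6.31e-12).

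SLC2A1 went in K450R from 345 to 248 CPM, in K451R from 282 to 198 CPM and in K450RK451R from 284 to 181 CPM. In WT it went from 364 to 391 CPM. The mutant Dox samples were again below every Veh sample, and the fold change over the mutants was −0.55 ± 0.06 on the log2 scale (SE, edgeR adjusted p = 3.78e-08).

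HK2 differed from these genes in that it was also slightly lower in WT. It went in K450R from 207 to 167 CPM, in K451R from 186 to 140 CPM and in K450RK451R from 196 to 140 CPM, and in WT from 202 to 193 CPM. The counting interval of the WT ratio, −0.16 to 0.02 on the log2 scale, spanned 0. Over the mutants HK2 fell by 0.40 ± 0.06 on the log2 scale (SE, edgeR adjusted p = 5.40e-05). HK1 went in K450R from 301 to 259 CPM, in K451R from 272 to 225 CPM and in K450RK451R from 303 to 236 CPM, and in WT from 287 to 310 CPM. The HK1 fall over the mutants was smaller, −0.28 ± 0.06 (SE, edgeR adjusted p = 0.00207).

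**Figure D3:**
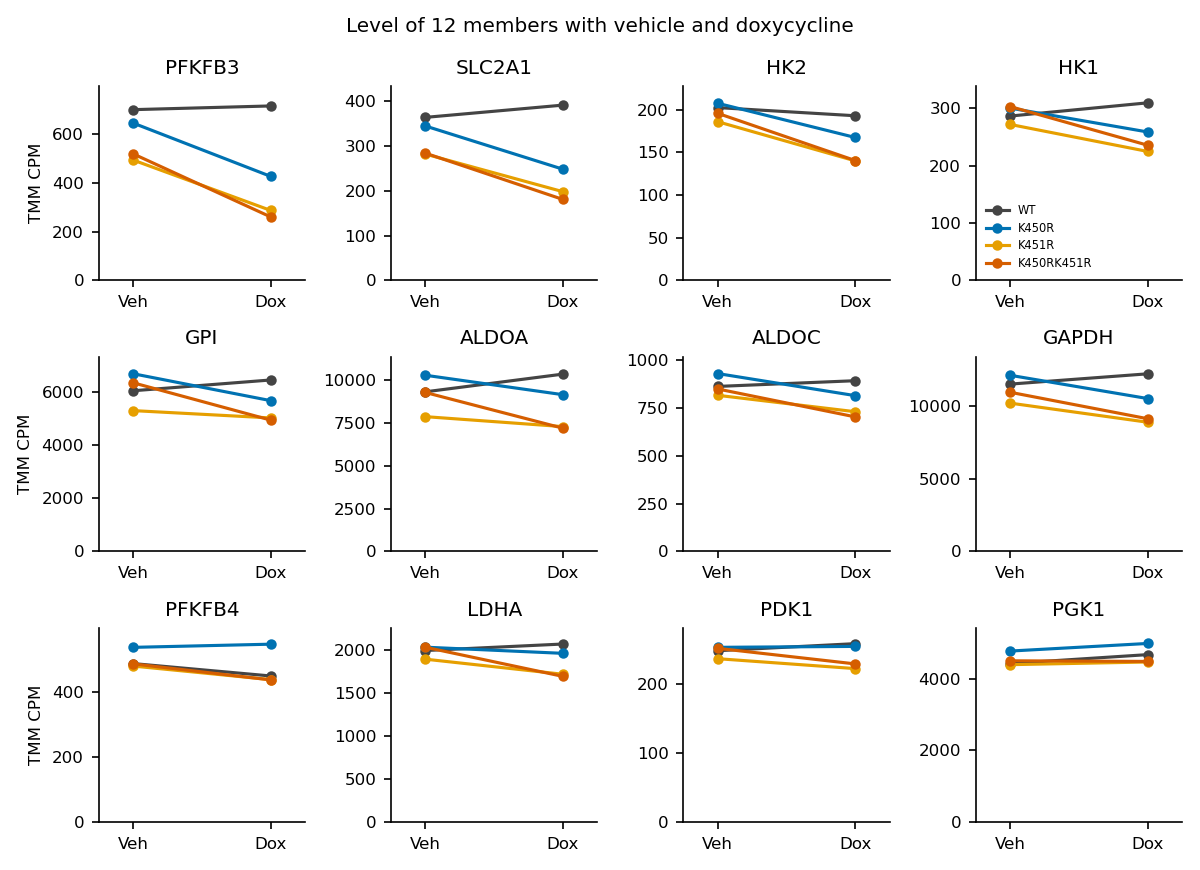
Level of 12 members in TMM-normalized CPM with Veh and Dox, 1 line of each colour joining the 2 conditions of a stable line and each point 1 sample, with all axes starting at 0. PFKFB3 and SLC2A1 fall in the 3 mutant lines and not in WT, HK2 falls in the mutants from 186 to 207 CPM to 140 to 167 CPM, and PGK1 and PDK1 barely move.

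The enzymes between the hexokinases and pyruvate fell by less. GPI went in K450R from 6684 to 5672 CPM, in K451R from 5297 to 5021 CPM and in K450RK451R from 6345 to 4940 CPM, and in WT from 6043 to 6448 CPM. ALDOA, which splits fructose-1,6-bisphosphate, went in K450R from 10273 to 9140 CPM, in K451R from 7859 to 7278 CPM and in K450RK451R from 9268 to 7185 CPM, and in WT from 9307 to 10340 CPM. For both genes the fall was smallest in K451R, and the Veh and Dox samples of the mutants overlapped across lines. The fold changes over the mutants were −0.23 ± 0.05 for GPI (edgeR adjusted p = 0.00318) and −0.22 ± 0.05 for ALDOA (adjusted p = 0.00391) on the log2 scale (SE).

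ALDOC, the brain-type aldolase, went in K450R from 931 to 816 CPM, in K451R from 817 to 732 CPM and in K450RK451R from 851 to 704 CPM, and in WT from 864 to 894 CPM. GAPDH, which oxidises glyceraldehyde-3-phosphate, went in K450R from 12147 to 10542 CPM, in K451R from 10227 to 8909 CPM and in K450RK451R from 10976 to 9151 CPM, and in WT from 11537 to 12247 CPM. Their fold changes over the mutants were −0.21 ± 0.05 for ALDOC (edgeR adjusted p = 0.0112) and −0.22 ± 0.04 for GAPDH (adjusted p = 0.000953). GAPDH is often used as a reference transcript, and it was lower in all 3 mutant lines with Dox. GAPDH has 58 pseudogene rows holding 10.8% of the summed counts in the lines, and 1 HK2 pseudogene row holds 6.53%. The share is 20.2% for TPI1 and 10.1% for LDHA, so reads of these 4 genes may be split.

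Next along the pathway, TPI1 (−0.16 ± 0.05, edgeR adjusted p = 0.0583) and LDHA (−0.15 ± 0.05, adjusted p = 0.0729) missed the threshold over the mutants. LDHA went in K450R from 2037 to 1965 CPM, in K451R from 1898 to 1722 CPM and in K450RK451R from 2036 to 1697 CPM, and in WT from 1998 to 2074 CPM. PFKFB4 did not follow PFKFB3. It went in K450R from 538 to 548 CPM, in K451R from 480 to 439 CPM and in K450RK451R from 487 to 438 CPM, and in WT from 488 to 450 CPM.

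PDK1 went in K450R from 252 to 254 CPM, in K451R from 236 to 222 CPM and in K450RK451R from 251 to 228 CPM, and in WT from 247 to 258 CPM. UGP2 stayed between 28.1 and 35.6 CPM in all 8 conditions, and SLC16A3 between 88.6 and 131 CPM. SLC2A3 was at 17, 16, 17 and 14 counts with Veh and at 11, 9, 19 and 15 counts with Dox, in the order WT, K450R, K451R and K450RK451R. The Veh and Dox samples of each of these genes overlapped.

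The remaining members were called in none of the comparisons. They were the phosphofructokinase genes PFKL, PFKM and PFKP, the regulator PFKFB2, and the lower glycolysis genes PGK1, PGAM1, ENO1 and PKM. LDHB, the monocarboxylate carrier SLC16A1, the kinase PDK3, and PDHA1 and PDHB were also among them. So were the glycogen genes PGM1, GYS1 and GBE1 and the pentose phosphate genes PGD, TALDO1 and TKT. PDK3, PGM1 and GYS1 were the 3 members with a higher value with Dox in all 3 mutant lines, and none of these passed. The largest of their fold changes over the mutants was 0.17 ± 0.09 on the log2 scale (SE), for PDK3 (edgeR adjusted p = 0.328).

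**Figure D4:**
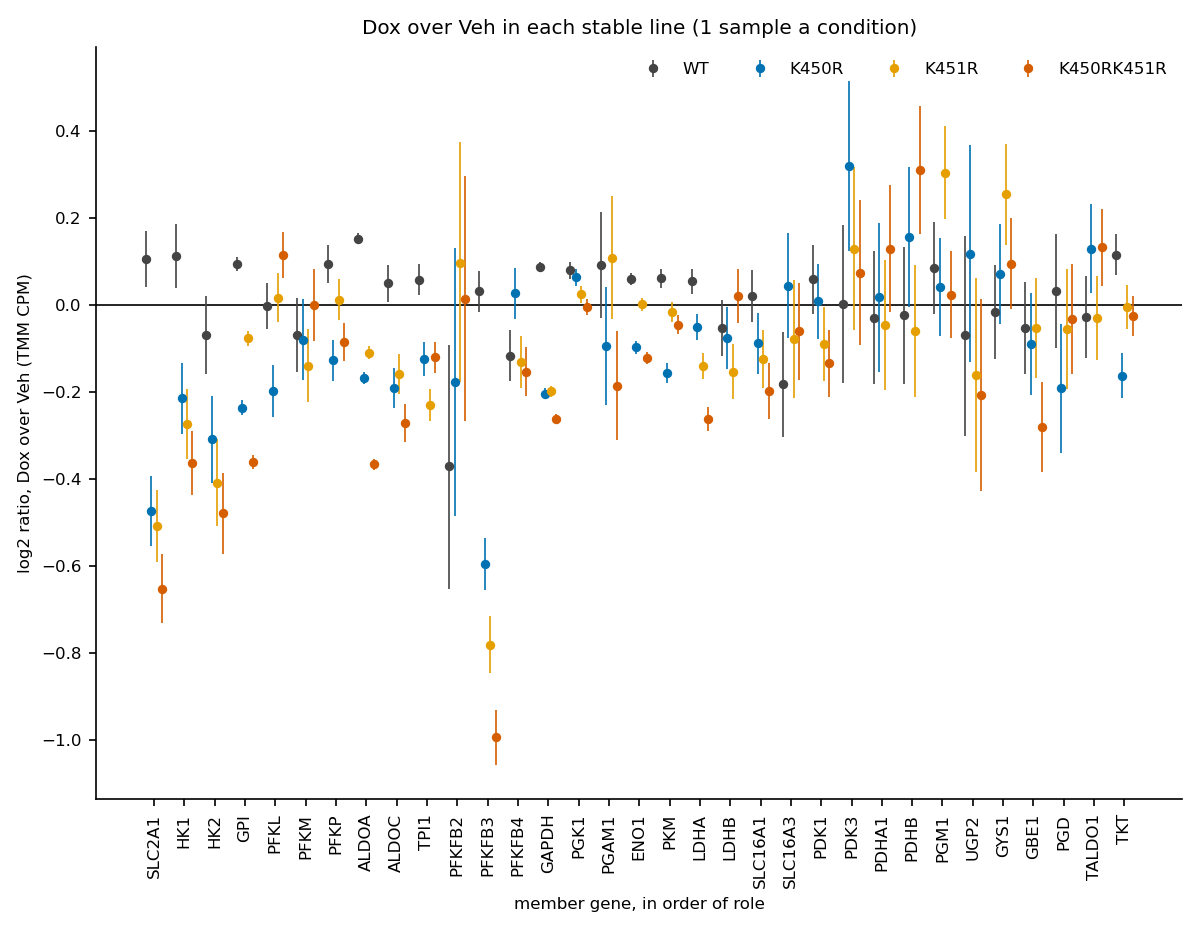
Log2 ratio of Dox over Veh for 33 members in each stable line, with exact 95% intervals that cover counting error only. SLC2A3 is left out for its low counts. The 3 mutant lines (blue, yellow and orange) lie below WT (grey) for PFKFB3, SLC2A1, HK1, HK2, GPI, ALDOA, ALDOC and GAPDH. They also lie below 0, with WT above 0, for TPI1, PKM, LDHA, SLC16A1 and the pentose phosphate genes PGD and TKT. Of the glycogen genes, GBE1 lies below 0 in all 4 lines, and PGM1 and GYS1 lie above 0 in the 3 mutant lines. The mutant lines fall on both sides of 0 for UGP2 and TALDO1.

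Within a line there was 1 sample a condition, so no test was made there. In WT 0 members were lower by 1.5-fold or more, against 6.45% of all genes. In K450R 2 were (PFKFB3 and SLC2A3, the latter from 16 to 9 counts), against 5.96%. In K451R 1 was (PFKFB3), against 5.56%, and in K450RK451R 2 were (PFKFB3 and SLC2A1), against 5.57%. No member was higher by 1.5-fold in any line, where 4.84%, 7.00%, 6% and 8.33% of all genes were. With all genes limited to those averaging 100 counts or more, a limit chosen after seeing the data, 1.32%, 1.01%, 1.56% and 1.43% were lower and 0.426%, 1.22%, 1.21% and 2.12% higher.

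The median log2 ratio of the members was 0.031 in WT, −0.097 in K450R, −0.078 in K451R and −0.12 in K450RK451R, while over all genes it lay between 0.00095 and 0.0087. Members with a ratio below 0 numbered 14 in WT, 23 in K450R, 25 in K451R and 25 in K450RK451R. Of the 34, 17 were lower in all 3 mutant lines, against 18.1% of all genes. For 13 of these WT went the other way, against 7.98% of all genes. Only SLC2A3, HK2, PFKM and GBE1 were lower in all 4 lines.

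The difference between WT and the mutants was then tested directly, as the Dox effect in WT minus the mean effect in the 3 mutant lines. The split into WT and mutants was chosen with earlier results of these data known. The WT effect rests on a single pair of samples, which was assumed to vary like the mutant pairs. In this test 2 members were higher in WT and 0 lower, against 0.156% and 0.00709% of all genes. They were PFKFB3, with a difference of 0.82 ± 0.12 (SE, edgeR adjusted p = 0.000106), and SLC2A1, with 0.65 ± 0.12 (SE, adjusted p = 0.00316). Differences of 0.40 ± 0.12 for HK1, 0.37 ± 0.09 for ALDOA and 0.33 ± 0.12 for HK2 did not pass (adjusted p = 0.286, 0.125 and 0.547). GPI, ALDOC and GAPDH, also called in the mutants, did not pass this test by edgeR either. The effects of these genes in the mutants, like those of HK1, ALDOA and HK2, are therefore not shown to differ from WT.

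**Figure D5:**
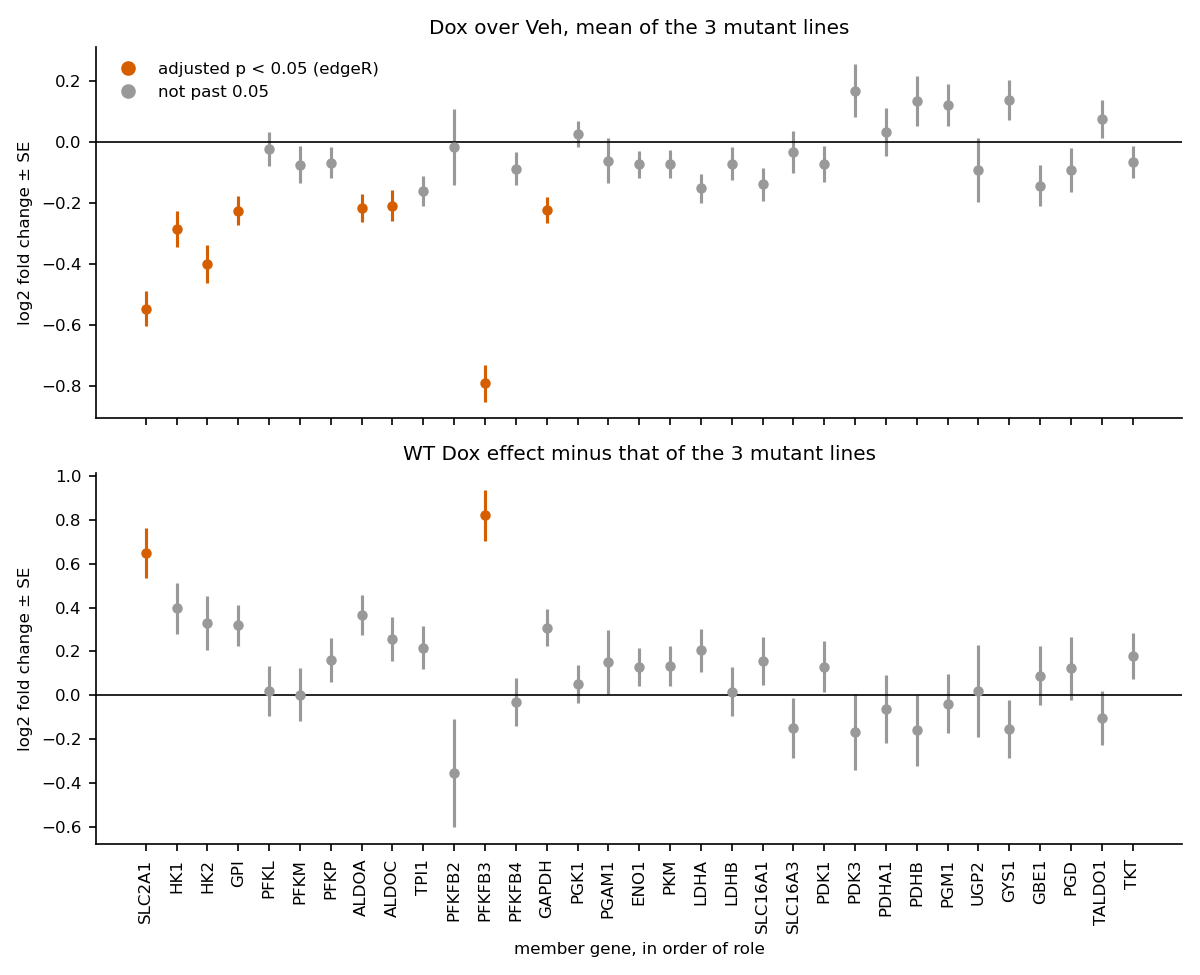
Fitted log2 fold change ± SE of 33 members for Dox over Veh in the 3 mutant lines (top) and for the WT effect minus the mutant effect (bottom), with members at an adjusted p below 0.05 in orange. The 8 called members of the top panel lie between −0.79 and −0.21, and PFKFB3 and SLC2A1 are the 2 called in the bottom panel. SLC2A3 is left out.

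Other values moved with doxycycline. The nuclear RNAs MALAT1 and NEAT1 were lower with Dox in every line, MALAT1 going in WT from 2868 to 1300 CPM and in K450RK451R from 1670 to 1227 CPM. The mitochondrial share of counts went from 13.0 to 9.76% in WT, from 12.1 to 13.7% in K450R, from 14.4 to 10.4% in K451R and from 12.3 to 8.04% in K450RK451R. NEAT1 went in WT from 1126 to 254 CPM and in K450RK451R from 333 to 246 CPM. The part of these values in the results was not tested.

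Outside the 34, a list of 62 other genes of glucose metabolism had 38 members tested in the stable lines, and ENO2 was the only one to pass. That is 1 of 38 over the mutants, a share near the 2.33% of all genes that were lower. ENO2, the neuronal enolase, went in K450R from 373 to 280 CPM, in K451R from 296 to 228 CPM and in K450RK451R from 339 to 251 CPM, and in WT from 417 to 331 CPM. Its value was lower with Dox in every line, and it fell by 0.41 ± 0.06 on the log2 scale over the mutants (SE, edgeR adjusted p = 5.22e-06), and its WT minus mutant difference was 0.08 ± 0.11 (adjusted p = 0.939). In the siRNA samples it was at 29.4 and 34.8 CPM against 23.2 and 22.4 CPM, without overlap (adjusted p = 0.201).

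Of 20 HIF targets outside glycolysis, 18 were tested in the lines, and over the mutants 9 fell and 0 rose, against 2.33% of all genes lower and 1.30% higher. The median of the list was −0.27, against 0.0039 over all genes. ANKRD37, an ankyrin-repeat gene, went in K450R from 322 to 223 CPM, in K451R from 369 to 187 CPM and in K450RK451R from 239 to 129 CPM, and in WT from 425 to 425 CPM. It fell over the mutants by 0.80 ± 0.07 on the log2 scale (SE, edgeR adjusted p = 5.98e-11), and its WT minus mutant difference was 0.80 ± 0.13 (adjusted p = 0.000858). DDIT4, an inhibitor of mTORC1 signalling, was the other gene of this list to pass the test of the difference (0.44 ± 0.09, adjusted p = 0.0231).

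VEGFA, the angiogenic growth factor, fell over the mutants by 0.48 ± 0.05 on the log2 scale (SE, edgeR adjusted p = 1.25e-08). KDM3A, NDRG1, P4HA1, MXI1, ERO1L and CA12 made up the other 6 that fell over the mutants. In WT the log2 ratio was also below 0 for CA12 (−0.35), VEGFA (−0.27) and KDM3A (−0.11). It was above 0 there for DDIT4 (0.050), NDRG1 (0.13) and MXI1 (0.11), and its counting interval spanned 0 for ANKRD37, P4HA1 and ERO1L. Over the 4 lines 5 genes of the list fell and 0 rose by edgeR, namely KDM3A, ANKRD37, VEGFA, DDIT4 and CA12. In the siRNA samples 17 genes of this list were tested, and 0 passed in either direction by edgeR. HIF1A itself was at 65.6 to 78.1 CPM with Veh and at 80.1 to 84.5 CPM with Dox, without overlap between the conditions, and did not pass over the mutants (0.11 ± 0.07, adjusted p = 0.477). EPAS1, EGLN3 and CA9 did not pass either. MYC rose, by 0.51 ± 0.07 on the log2 scale over the mutants (SE, edgeR adjusted p = 2.64e-06), in WT from 106 to 134 CPM and in K450RK451R from 142 to 209 CPM.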

How the data were processed

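RNA-seq was made from LNCaP total RNA with a stranded TruSeq kit in 20 samples. The authors deposited 2 tables of raw counts per Ensembl gene, not normalized. Per the labels' processing notes, FastQC 0.11.9, STAR 2.7.2 and featureCounts 1.6.4 were used on hg19/GRCh37. Neither the annotation release nor the strand setting of the counting is given in the sources used here, so reads shared with antisense or overlapping genes may be included.

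Samples were grouped by their titles. The 2 columns of each stable-line condition were summed, which left 8 conditions with 1 sample each. Counts were scaled by TMM and passed through filterByExpr of edgeR, using the groups of the siRNA samples and the treatments of the lines. They were tested with the quasi-likelihood method of edgeR 4.0.16 in R 4.3.3, with Benjamini-Hochberg adjustment over all genes tested and a threshold of 0.05. The comparisons were siEHMT1 against siNTC, Dox against Veh over the 4 lines and over the 3 mutant lines, and the difference between WT and the mutants. Within lines, log2 ratios of CPM were given with exact Clopper-Pearson 95% intervals and a limit of 1.5-fold. Alternatives were limma-voom (limma 3.58.1), DESeq2 1.42.0, another normalization, no filter, the older edgeR method, removal of the rRNA-like pseudogenes, a replicate block, and leaving out each sample or line. The scripts were tested on simulated counts.

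Exon lengths came from GENCODE 44 mapped to GRCh37, and promoters from RefSeq on GRCh38.p14. SLC2A3, PFKFB2 and SLC16A1 had no promoter entry. All 34 members were named. Sample values were given for those at an adjusted p below 0.05 in any fit, past 1.5-fold in any line, or among the 5 largest fold changes in the siRNA samples, and for SLC2A1, HK2, PFKFB4, LDHA and PDK1. The members, the other lists, the rule and the split into WT and mutants were chosen with earlier results of these data known. Other genes were named where they passed in a listed set, together with EHMT1, HIF1A, EPAS1, MYC, EGLN3 and CA9. MALAT1 and NEAT1 were singled out after their values were seen.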

Additional observations from a re-analysis of the deposited data

Results flagged for a closer look

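WT was split from the 3 mutant lines with earlier results of these data known. The Dox effect differed between the WT line and these mutant lines for 2 members by the test of the difference itself. For PFKFB3 it was higher in WT by 0.82 on the log2 scale, and for SLC2A1 by 0.65. Both genes were lower with Dox in 3 of 3 mutant lines. In WT the log2 ratio was 0.10 for SLC2A1 (exact 95% interval 0.04 to 0.17, counting error only) and 0.031 for PFKFB3 (−0.016 to 0.078, which spans 0), and the WT value rests on 1 pair of samples.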

How the results depend on the processing

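In the siRNA samples 0 members passed in either direction under every alternative run. The count of all genes that passed was 19, and it was 12 with no filter, 38 to 111 when 1 sample was left out (each time leaving 1 sample in a group, assumed to vary like the other) and 127 with the replicate block. Same-numbered siRNA samples did not deviate together (Pearson −0.0023 and Spearman 0.029 across 14532 genes, which are not independent). With 2 samples in each group, this cannot show whether same-numbered samples shared a culture or a batch. In the stable lines summing left no replicate numbers to pair.

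Over the 4 lines, 3 members fell, against 1 under DESeq2, 5 with no filter and 2 to 8 when a line was left out, with 8 without WT. All genes that passed numbered 296, against 137 under DESeq2 and 114 to 501 when a line was left out, with 114 without K451R, 122 without K450R and 501 without WT. Over the 3 mutant lines, 8 members fell, against 4 to 10 when a line was left out, with 4 without K450RK451R. All genes numbered 511, against 164 under DESeq2, 256 with no filter and 256 to 678 when a line was left out, with 256 without K451R. For WT minus the mutants, 2 members passed, against 5 under limma-voom and 2 to 6 when a line was left out, with 6 without K450R and 4 without K451R. All genes numbered 23, against 43 under limma-voom, 15 with no filter, 28 with 1 column of each condition, and 33 to 101 when a line was left out, with 101 without K450R and 42 without K450RK451R. PFKFB3, SLC2A1, HK2 and HK1 over the mutants, and PFKFB3 and SLC2A1 in the difference, passed under every alternative run.

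Within lines, members lower by 1.5-fold in K450R numbered 2, against 1 under upper-quartile normalization, 1 with a mean count of at least 100 (chosen after seeing the data) and 0 to 1 when only 1 column of each condition was used. With 1 column the count was 0 to 1 in WT and 1 to 2 in K450RK451R. Signs turned for SLC2A3 after siRNA (−0.42 without siNTC replicate 1 and −0.50 without siEHMT1 replicate 2, and up to 1.42 when another sample was left out), for PFKFB4 after siRNA (−0.30 to 0.095) and for the WT minus mutant difference of PFKFB4 (−0.065 to 0.026, the last without K450R). The causes were not tested. Depth limits SLC2A3 most, and 1 sample a condition limits every within-line value to counting error.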
